A study of Mus musculus with 16 samples.

Results

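Zfp979, Zfp984 and Zfp985 are 3 protein-coding zinc finger genes that lie beside each other on mouse chromosome 4, and they were described here across 3 embryonic stages, Stat3 null and wild-type (WT) cells and the annotated cell types of chimeric embryos. They were picked by name as 3 of the 29453 genes in the count table, because measured values of the null and WT cells had already drawn attention to them. The null against WT values below are therefore a description and carry no test.

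Chimeric embryos were made by injecting tdTomato-expressing Stat3 null embryonic stem cells into WT blastocysts. They were collected on embryonic days 7.5 (E7.5), 8.5 (E8.5) and 9.5 (E9.5), dissociated, sorted on tdTomato and sequenced as single cells from the 3' end. The 6 groups were null and WT cells at each stage, with 2 libraries in each group at E7.5 and E8.5 and 4 in each at E9.5. Donor cells and host blastocysts were both CD1, an outbred stock, and came from the same breeding colony as the study describes it. All null cells descended from donor embryonic stem cells, derived from mice bred into CD1 in which a neomycin resistance gene replaced part of the Stat3 gene, and carrying the tdTomato reporter, whereas all WT cells descended from host embryos that had neither. The Stat3 deletion, the reporter and any other difference between the donor cells and the hosts cannot be told apart. Per the labels a pool held about 10 embryos at E7.5, about 4 at E8.5 and 1 at E9.5. The study describes E7.5 pools made by embryo size and 2 embryos at E9.5. Libraries of a group may thus differ in embryo size at E7.5 and share embryos at E9.5. The SDs and tests below treat them as separate replicates. Libraries are named A to D within a group, and the letters link no null library to a WT library.

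Genes of this class encode proteins with an array of C2H2 zinc fingers, each finger reading a few bases of DNA, and most carry a KRAB domain. The KRAB domain recruits the co-repressor TRIM28, which in turn brings in the histone methyltransferase SETDB1, so that chromatin at the bound site is silenced. Many such proteins bind retrotransposons in the early embryo. The genes arise by tandem duplication and vary between mouse strains, and the distal part of mouse chromosome 4 holds one of their large clusters. Zfp979 is also listed under the synonym Ssm1b, a name given to a strain-specific modifier of DNA methylation of a transgene.

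On GRCm38, Zfp985 occupied chr4:147553277-147585198 on the plus strand, Zfp979 chr4:147611937-147642513 on the minus strand and Zfp984 chr4:147753974-147809788 on the minus strand. Together they spanned 256.512 kb, with the zinc finger gene Zfp534 between Zfp979 and Zfp984. The longest coding regions were 1557 bases for Zfp985, 1221 for Zfp979 and 1641 for Zfp984. Each was split over 3 coding exons, and the longest coding exon held 1400, 1019 and 1484 bases, respectively. Coding identity was 91.5% between Zfp984 and Zfp985, 84.9% between Zfp979 and Zfp984 and 82.7% between Zfp979 and Zfp985, over the aligned bases.

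The sequences before the gene starts are shown so that the 3 copies can be compared where their transcription begins. All 3 starts have a RefSeq window (GRCm38.p6), and the 250 bases before each are given 5' to 3' on the strand of the gene, with capitals for stretches of at least 10 bases present in all 3 windows. The windows are chr4:147642509-147642758 (minus) for Zfp979, chr4:147809789-147810038 (minus) for Zfp984 and chr4:147553027-147553276 (plus) for Zfp985. They end at the RefSeq start, which for Zfp979 lies 5 bases inside the gene as GENCODE, the source of the gene coordinates above, places it.
Zfp979: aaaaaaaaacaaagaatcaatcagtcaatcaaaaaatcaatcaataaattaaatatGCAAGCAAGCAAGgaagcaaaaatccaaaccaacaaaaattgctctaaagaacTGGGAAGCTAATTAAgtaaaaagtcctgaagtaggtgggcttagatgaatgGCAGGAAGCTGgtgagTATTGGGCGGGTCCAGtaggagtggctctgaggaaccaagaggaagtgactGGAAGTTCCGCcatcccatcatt
Zfp984: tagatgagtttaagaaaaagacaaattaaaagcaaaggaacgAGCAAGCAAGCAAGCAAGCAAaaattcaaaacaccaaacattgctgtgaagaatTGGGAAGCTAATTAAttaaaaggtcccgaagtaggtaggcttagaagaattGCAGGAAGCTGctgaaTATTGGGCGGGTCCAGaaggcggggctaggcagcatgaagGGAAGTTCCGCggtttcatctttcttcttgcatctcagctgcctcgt
Zfp985: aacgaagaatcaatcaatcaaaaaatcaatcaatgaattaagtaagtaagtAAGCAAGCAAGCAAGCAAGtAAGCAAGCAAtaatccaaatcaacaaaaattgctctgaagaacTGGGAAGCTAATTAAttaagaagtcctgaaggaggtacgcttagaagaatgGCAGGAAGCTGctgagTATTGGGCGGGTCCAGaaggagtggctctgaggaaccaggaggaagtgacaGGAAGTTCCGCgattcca
Identity over the aligned bases was 91.0% between the Zfp979 and Zfp985 windows, 86.0% between Zfp984 and Zfp985 and 79.2% between Zfp979 and Zfp984. The longest shared stretch outside the AAGC repeat was TATTGGGCGGGTCCAG, of 16 bases, which began 74, 87 and 69 bases before the RefSeq start of Zfp979, Zfp984 and Zfp985. Searched on both strands, these letters were present in 8 of 27025 RefSeq promoter windows (0.0296%), all 8 of them among the 75 windows within 3 Mb of the span. The other holders were Zfp980, Zfp600, Rex2, Zfp988 and the predicted gene Gm13212. They were named after their values were seen. A match is a description of the letters and does not identify a binding site.

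Because reads came from transcript 3' ends, sharing between copies bears on the counts. Of the 50-base stretches in the last 500 bases of the annotated transcripts, 75.4% were unique to Zfp979, 67.2% to Zfp984 and 78.4% to Zfp985. Zfp984 and Zfp985 shared some stretches with each other and Zfp979 shared none with either. The gene sharing most with Zfp979 was Zfp978, and for Zfp984 and Zfp985 it was Gm13212. Only 26.8% were unique to Zfp534, so its values are the less certain ones.

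The analysis used 37841 of 41832 cells in 16 libraries of 360 to 4327 cells and 20682659 to 138613245 UMIs (unique molecular identifiers, each standing for 1 captured RNA molecule). Levels are given as UMIs of a gene per 1000000 UMIs of the library, abbreviated CPM, without division by length, so a level is not compared between genes. Intervals and limits cover counting error only. Stat3 was at 1.16 to 2.53 CPM in null libraries and at 6.14 to 9.31 CPM in WT libraries over the 3 stages, so every null library was below every WT library, although reads from the 3' end of Stat3 need not report the replaced part. tdTomato RNA was at 66.1 to 237 CPM in null libraries, and WT cells with any were left out. Of 37351 cell barcodes, 488 (1.31%) occurred in more than 1 library. Type labels were checked against marker lists. The Erythroid, ExE ectoderm, Visceral endoderm, Cardiomyocytes FHF 1, Embryo proper endothelium and Spinal cord progenitors labels had every marker of their list higher than elsewhere, and Mesenchyme had 3 of 4. Extra-embryonic types made up 0.556 to 0.967% of null cells and 15.3 to 23.2% of WT cells at E7.5.

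Before the results, 1 library has to be set apart. In E9.5 WT library C all 3 genes were far below the other 3 WT libraries of that stage, and the values that rest on it are given with and without it for the fits over libraries, the E9.5 fits by type and the correlations.

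All 3 genes were higher in null than in WT cells at every stage, without overlap between libraries, and the ratio of the group means was highest at E8.5. Zfp979 was at 15.4 and 17.6 CPM in the E7.5 null libraries, with 8.13 and 8.71 in the WT ones. At E8.5 it was at 9.84 and 10.4 CPM in null and at 2.50 and 1.06 in WT libraries. The 4 E9.5 null libraries held 9.49, 10.1, 10.6 and 9.74 CPM, against 4.31, 4.46, 0.0506 and 4.01 in WT A to D. The null levels stayed close together within each stage. The WT levels differed between libraries at E8.5, and at E9.5 library C lay apart from A, B and D, which were close to each other. Group means of Zfp979 were 16.5 ± 1.52 against 8.42 ± 0.410 CPM (SD, n = 2 and 2) at E7.5, 10.1 ± 0.381 against 1.78 ± 1.02 (n = 2 and 2) at E8.5 and 9.97 ± 0.482 against 3.21 ± 2.11 (n = 4 and 4) at E9.5. The null mean was thus 1.96, 5.69 and 3.11 times the WT mean.

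For Zfp984 the null and WT libraries were likewise apart at each stage. At E7.5 its null libraries held 14.8 and 14.2 CPM and its WT libraries 6.04 and 5.58, and E8.5 libraries held 9.04 and 8.96 CPM against 2.17 and 1.18. At E9.5 null libraries held 7.77, 8.54, 8.16 and 8.22 CPM and WT libraries A to D held 4.06, 4.64, 0.481 and 4.39. Every null library was again above every WT library of its stage. The means were 14.5 ± 0.405 against 5.81 ± 0.321 CPM (SD, n = 2 and 2), 8.998 ± 0.0536 against 1.67 ± 0.703 (n = 2 and 2) and 8.17 ± 0.318 against 3.39 ± 1.96 (n = 4 and 4), ratios of 2.50, 5.38 and 2.41.

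For Zfp985 the E8.5 WT level was lowest. At E7.5 the null libraries held 13.3 and 16.9 CPM, against 7.47 and 8.18 in WT. The E8.5 values were 4.99 and 6.94 CPM in null and 0.410 and 0.749 in WT. For E9.5 they were 4.87, 5.87, 6.72 and 6.01 CPM in null and 2.74, 3.46, 0.304 and 3.15 in WT A to D. No null library overlapped a WT library of the same stage. The means of 15.1 ± 2.53 against 7.83 ± 0.501 CPM (SD, n = 2 and 2), 5.96 ± 1.38 against 0.579 ± 0.240 (n = 2 and 2) and 5.87 ± 0.763 against 2.41 ± 1.44 (n = 4 and 4) gave ratios of 1.93, 10.3 and 2.43.

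**Figure D1:**
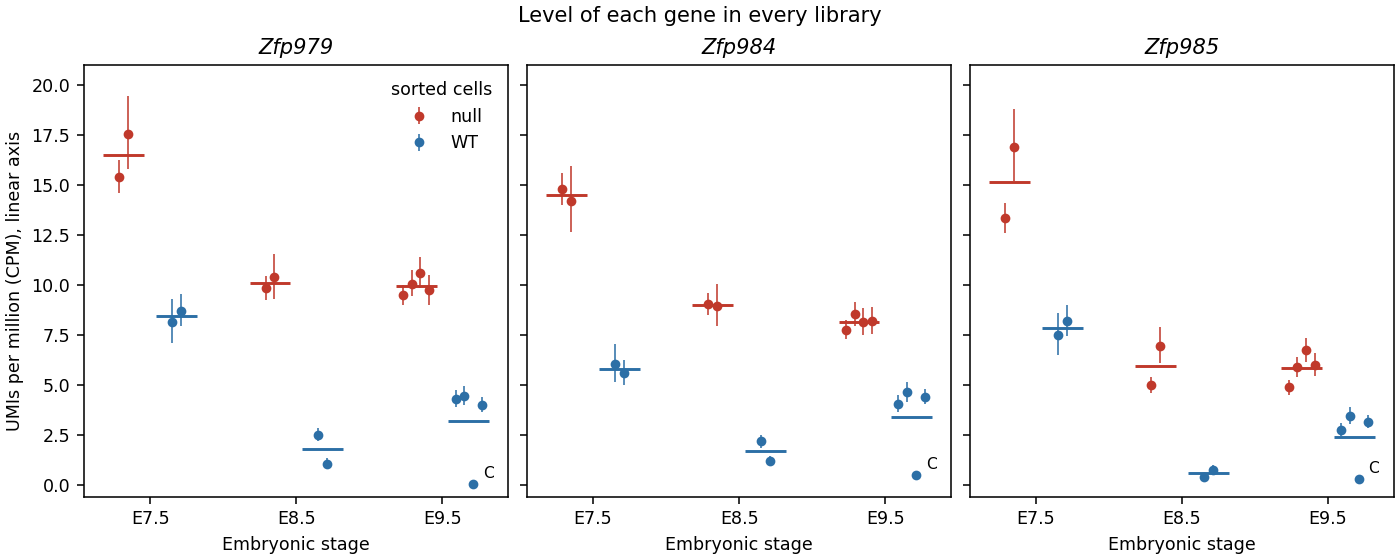
Level of Zfp979, Zfp984 and Zfp985 in each library in CPM on a linear axis, by embryonic stage, with null and WT libraries as points with 95% Poisson intervals and a line at each group mean. Null points lie above all WT points of their stage in every panel, and E9.5 WT library C, marked by its letter, lies at 0.0506, 0.481 and 0.304 CPM.

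Separation of this kind was not rare among all genes. Every null library was above every WT library for 14.9% of 17862 tested genes at E7.5, 19.1% at E8.5 and 3.51% at E9.5. Since the genes were picked on this contrast, nothing is read from their 3 of 3 at each stage. In the fit of all genes (edgeR quasi-likelihood, 16 libraries together), the log2 fold changes of null over WT for Zfp979 were 1.00 (SE 0.889) at E7.5, 2.47 (SE 0.945) at E8.5 and 1.62 (SE 0.632) at E9.5. They were 1.36 (SE 0.644), 2.40 (SE 0.672) and 1.26 (SE 0.447) for Zfp984 and 0.98 (SE 0.647), 3.34 (SE 0.757) and 1.27 (SE 0.463) for Zfp985. The standard errors rest in large part on E9.5 WT library C. Without it the values were 1.00 (SE 0.248), 2.47 (SE 0.264) and 1.22 (SE 0.191) for Zfp979, 1.36 (SE 0.194), 2.40 (SE 0.202) and 0.90 (SE 0.145) for Zfp984 and 0.98 (SE 0.229), 3.34 (SE 0.269) and 0.90 (SE 0.177) for Zfp985. Beside the E7.5 values stands the unequal share of extra-embryonic cells. With types named as extra-embryonic left out, the E7.5 log2 fold change of Zfp985 was 1.57, against 1.15 for Zfp979 and 1.39 for Zfp984. Beside the E9.5 values stands the summed level of 6 erythroid markers, none of them at 0 in a library, which was 222 to 588 CPM in null and 4984 to 15545 CPM in WT libraries. Its part in the pooled values was not tested. Leaving out E8.5 WT library A moved the Zfp979 value at E8.5 to 3.25.

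The difference was also present as a share of cells, although each gene gave few UMIs per cell, with a maximum of 8. After each cell was thinned to 10000 UMIs, which every used cell exceeded, at least 1 UMI of the 3 genes was present in 33.6 to 34.7% of null and 17.3 to 19.9% of WT cells at E7.5. The shares were 21.1 to 23.3% and 2.59 to 4.76% at E8.5. At E9.5 they were 18.3 to 21.7% in null libraries and 10.1 to 11.8% in WT libraries A, B and D, with 0.578% in library C. Before thinning, the null and WT shares were 79.5 to 86.7% and 41.5 to 44.5% for E7.5, 46.9 to 48.4% and 5.31 to 13.2% for E8.5, and 45.1 to 60.0% and 3.204 to 27.8% for E9.5, at median depths of 18205 to 57791.5 UMIs per cell. No cell type known to lack these genes was at hand to set a background from free RNA, and the smallest shares were those of library C.

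E9.5 WT library C held 4 UMIs of Zfp979 among 79062693, a level of 0.0506 CPM (95% interval 0.0138 to 0.130). WT libraries A, B and D together had a mean of 4.26 ± 0.230 CPM (SD, n = 3), which was 84.2 times the level in C (95% interval 32.9 to 309). For Zfp984 library C held 38 UMIs, and the mean of the other 3 libraries, 4.36 ± 0.290 CPM, was 9.08 times as high (6.61 to 12.8). For Zfp985 it held 24 UMIs, against 3.12 ± 0.362 CPM in the others, 10.3 times as high (6.90 to 16.02). Libraries A, B and D lay well apart from C and were close to each other. Their means were 42.7, 53.4 and 53.1% of the E9.5 null mean for Zfp979, Zfp984 and Zfp985.

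The low level in library C was also described by cell type. Library C held 4, 38 and 24 UMIs of Zfp979, Zfp984 and Zfp985 in all. The counts by type follow in large part from these totals and add no separate evidence. Of 27 types with over 15 cells in library C, Zfp979 had 0 UMIs in 23 types, as its 4 UMIs leave most types at 0. Its highest level was 0.883 CPM, in Ventral forebrain progenitors. C was the lowest WT library for Zfp979 in 27 of 27 types. For Zfp984 C was lowest in 26 of 27 types, with a highest level of 1.68 CPM in Epidermis. For Zfp985 it was lowest in 24 and tied at the lowest in the other 3, with a highest level of 2.96 CPM in the cells labelled EMP.

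Few other genes behaved in this way in library C. Of 11370 genes with at least 2 CPM in each of WT libraries A, B and D, 10 were more than 4 times lower in C than in the lowest of these. Besides the 3 zinc finger genes they were Afp, Apoa2, Rhox5 and Ttr, which are abundant in visceral and yolk sac endoderm, S100g, which encodes a calcium-binding protein, and the cardiac muscle genes Csrp3 and Myh6. The same count was 0 genes for library A, 1 for B and 2 for D. These 7 genes were named by that count after the values were seen. Of 8 marker lists, C was below A, B and D in 5 and between them in 3. The summed visceral or extra-embryonic endoderm markers were at 7.07 CPM in C and 33.2 to 151 in the others, and the cardiomyocyte markers at 49.8 against 75.6 to 125. Erythroid markers were at 4984 CPM in C against 5356 to 15545, with the ExE ectoderm list at 15.2 against 15.6 to 21.1 and the undifferentiated or germ cell list at 7.27 against 8.30 to 16.7. Endothelial, mesenchymal and neural lists in C lay inside the range of the others. Extra-embryonic types made up 1.42% of cells in C and 2.76 to 6.07% in A, B and D. The counts by type above rest on few UMIs in C, and the part of cell composition in the low level of the 3 genes was not tested.

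Library C was not shallow, with a median of 39962 UMIs per cell against 26662 to 29999 in the other E9.5 WT libraries, and its median mitochondrial percentage was 1.34% against 1.19 to 1.61%. Stat3 stood at 6.21 CPM in C and at 6.14 to 7.08 in the others. Among nearby genes, the lincRNA Gm20707, which overlaps Zfp984 on the same strand, was at 0.278 CPM in C and 1.71 ± 0.182 in the others (6.15 times). Because of the overlap, the split of reads between Gm20707 and Zfp984 is uncertain. Zfp988, a holder of the 16-base stretch, was at 0.0632 CPM in C, from 5 UMIs, and at 0.148 in the others (2.33 times, 95% interval from the UMIs in C of 0.999 to 7.18). Zfp534 was at 0.329 against 0.571 CPM (1.74 times) and Zfp990 at 8.51 against 12.0 CPM (1.41 times). Zfp982 and Zfp933, the nearest zinc finger genes outside the span on each side, differed by ratios of 1.16 and 0.956.

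The step from stage to stage within a genotype is another contrast than the one that chose the genes. It rests on the same libraries, however, and a low E8.5 WT level is part of the difference the genes were chosen for, so the WT steps into and out of E8.5 are not independent of that choice. The tests were edgeR quasi-likelihood tests with Benjamini-Hochberg adjustment over 17862 genes. Their p-values measure the spread between libraries, which at E9.5 may share embryos, because the study's methods describe 2 embryos of that stage and each genotype has 4 libraries. In WT cells 42.4% of all genes passed the adjusted p threshold of 0.05 between E7.5 and E8.5 (27.4% without E8.5 WT library A). Of the 3 genes, Zfp985 fell by 3.60 on the log2 scale (SE 0.761, edgeR adjusted p = 0.00262). Cell composition changed over the same step. Extra-embryonic types made up 15.3 to 23.2% of WT cells at E7.5 and 3.92 to 5.03% at E8.5, the summed visceral or extra-embryonic endoderm markers went from 681 to 709 CPM to 68.3 to 99.04 CPM, and the erythroid markers from 45.7 to 388 CPM to 29371 to 48864 CPM. With embryonic types only, the value of Zfp985 was -3.00 (edgeR adjusted p = 0.00979), and the part of the erythroid cells was not tested. The estimates for Zfp979 (-2.07, SE 0.947, edgeR adjusted p = 0.0997) and Zfp984 (-1.62, SE 0.675, edgeR adjusted p = 0.0727) did not pass. Between E8.5 and E9.5, 38.4% of all genes passed in WT cells (19.1% without E8.5 WT library B), and 0 of the 3 did. The log2 values were 0.59 for Zfp979 (edgeR adjusted p = 0.610), 0.76 for Zfp984 (0.339) and 1.82 for Zfp985 (SE 0.685, 0.0543), and DESeq2 gave an adjusted p of 0.0218 for Zfp985.

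The fall of Zfp985 passed with each library left out in turn. These fits use values behind the choice of the genes, so this passing is given as a description. The values that had not passed depended on E9.5 WT library C, and some of those of Zfp984 and Zfp985 also on the scaling, the tool or the genes tested. Library C was set apart for the low values of these same genes, so leaving it out lowers their standard errors by construction (for Zfp979 from 0.947 to 0.265), and the p-values of that fit are given as a description. When C was left out, 42.0% of all genes passed between E7.5 and E8.5 in WT cells, and the log2 fold changes were -2.07 for Zfp979 (edgeR adjusted p = 7.67e-05), -1.62 for Zfp984 (6.00e-05) and -3.61 for Zfp985 (1.63e-06). From E8.5 to E9.5, where 33.8% of all genes passed in that fit, the values were 0.99 (edgeR adjusted p = 0.00775), 1.12 (0.000727) and 2.18 (9.32e-05).

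In null cells the estimates lay closer to 0. Between E7.5 and E8.5, where 38.1% of all genes passed (24.7% without E8.5 null library A), the log2 fold changes were -0.60 for Zfp979 (edgeR adjusted p = 0.625), -0.59 for Zfp984 (0.493) and -1.25 for Zfp985 (0.152). Between E8.5 and E9.5, with 38.0% of all genes passing (21.6% without E8.5 null library B), they were -0.26 (edgeR adjusted p = 0.813), -0.38 (0.606) and -0.25 (0.756). Without library C the E7.5 to E8.5 values of Zfp984 (-0.59, edgeR adjusted p = 0.0257) and Zfp985 (-1.25, edgeR adjusted p = 0.00113) passed, and that of Zfp979 did not (-0.60, 0.0697). No E8.5 to E9.5 value in null cells passed without C, with adjusted p from 0.0753 to 0.349. Leaving out C, a WT library set apart for these same genes, changed the null estimates little and lowered their standard errors. For Zfp984 between E7.5 and E8.5 the standard error went from 0.623 to 0.187. The passes in null cells without C are therefore given as a description. The difference between the genotypes in these steps was not tested, because it is a form of the contrast that chose the genes.

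Cell types were compared by summing UMIs per library and type, for types that had over 15 cells in 2 or more libraries of both genotypes, which left 7 types at E7.5, 20 at E8.5 and 37 at E9.5. The null mean was above the WT mean in every one of these types for Zfp979 and Zfp984, and for Zfp985 in all but Thyroid primordium at E9.5 (5.39 CPM in null, 6.22 in WT). Non-overlapping libraries were found for Zfp979 in 7 of 7 types at the first stage, 20 of 20 at the second and 30 of 37 at the last. The counts were 7, 18 and 24 for Zfp984 and 7, 19 and 18 for Zfp985. Over all gene and type pairs tested, 12.9% did not overlap in this direction at E7.5, 14.8% at E8.5 and 4.91% at E9.5, and nothing is read from the counts of the chosen genes.

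The difference was also fitted by type. Zfp979 passed the filter on low counts in 7, 15 and 24 of the types from the first stage to the last, Zfp984 in 7, 12 and 19 and Zfp985 in 7, 7 and 12. Passing could depend on the null level alone, so the fitted values describe these types only. In the same order of stages their median log2 fold changes of null over WT were 1.14, 2.94 and 1.61 for Zfp979, 1.39, 2.63 and 1.25 for Zfp984 and 1.79, 3.41 and 1.53 for Zfp985. Without WT library C the E9.5 medians were 1.22, 0.92 and 1.08, over the 24, 21 and 15 types that then passed the filter. In E7.5 Blood progenitors, the type with the smallest value for Zfp979 at that stage, the log2 fold change was 0.43 (SE 0.247), where Zfp984 had 2.01 and Zfp985 2.16. Levels in these cells were 20.9 and 27.7 CPM of Zfp979 in null and 19.0 and 15.9 in WT libraries. In E8.5 Erythroid cells the values were 1.37, 2.61 and 3.41 for Zfp979, Zfp984 and Zfp985. The null and WT libraries of both types did not overlap for any of the 3 genes.

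Of the types with over 15 cells in 2 or more libraries of a genotype, cells labelled EMP held the most Zfp979 at E9.5. The 2 null libraries with enough of these cells, A and D, were at 33.2 and 42.7 CPM from 91 cells, with a mean of 38.0 ± 6.77 (SD, n = 2). The next type, Amniotic ectoderm, was at 15.1 ± 4.57 CPM (n = 2), and no library of one overlapped the other. The median over 39 null types was 10.3 CPM and the lowest was YS mesothelium with 4.07 ± 1.22 (n = 3). Below Amniotic ectoderm, the ranges of libraries of each type and the next in the order overlapped. In WT libraries the EMP cells were at 15.8, 19.7, 0 and 24.0 CPM in A, B, C and D, again the highest of 40 types in the mean (14.9 ± 10.5, n = 4), where the range that includes C overlapped that of the next type. The 0 in C came from 22 cells with 1352071 UMIs, which allows a level of up to 2.22 CPM (3 counts).

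The EMP label itself has no marker list here. Erythroid markers summed to 776 CPM in these cells and 12426 elsewhere, with 0 of 6 higher. Elsewhere includes the Erythroid cells themselves, which were at 184608 CPM. All cells outside the Erythroid label, EMP among them, summed to 702 CPM, so this comparison does not judge the EMP label. Another blood label, with few cells, had a high Zfp979 level in null cells. Megakaryocyte progenitors of E9.5 null A, the only null library with enough of them, had 45.0 CPM (21 UMIs in 16 cells), and WT libraries B and D had 4.42 and 15.7. Zfp984 was at 15.0102 CPM (7 UMIs) and Zfp985 at 21.4 CPM (10 UMIs) in these null cells. At E8.5, EMP cells held 26.9 CPM of Zfp979 in null A (29 UMIs in 37 cells). The WT libraries A and B had 3.11 CPM (3 UMIs in 27 cells) and 2.55 CPM (1 UMI in 21 cells). Thinned to 10000 UMIs, 38.0% of E9.5 null EMP cells held a Zfp979 UMI, still the highest share of the 39 types. Before thinning the share was 77.0%.

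Zfp985 was also highest in EMP cells among E9.5 types with 2 or more libraries, though with less distance to the next types. Null libraries held 10.6 and 12.6 CPM and WT libraries 9.54, 10.2, 2.96 and 7.82 in A to D. The null mean of 11.6 ± 1.39 CPM (n = 2) was followed by Pharyngeal mesoderm at 9.95 ± 5.45 (n = 3), whose range overlapped. The null median over types was 5.81 CPM, and the lowest was Dorsal spinal cord progenitors at 2.86 ± 0.714 (n = 4). For Zfp984 the EMP cells ranked sixth among null types, at 8.89 and 12.6 CPM against 6.64, 8.67, 0.740 and 6.26 in WT A to D. Limb ectoderm (12.7 ± 9.12 CPM, n = 2) and Cardiopharyngeal progenitors SHF (12.7 ± 7.42, n = 3) were level at the top of the types with 2 or more libraries. As shares of thinned cells they held ranks 3 and 10, with Anterior somitic tissues (12.8%) and Limb mesoderm (12.5%) leading. By level, Dorsal midbrain neurons were lowest at 4.35 ± 1.05 (n = 4) with a median over types of 7.86.

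**Figure D2:**
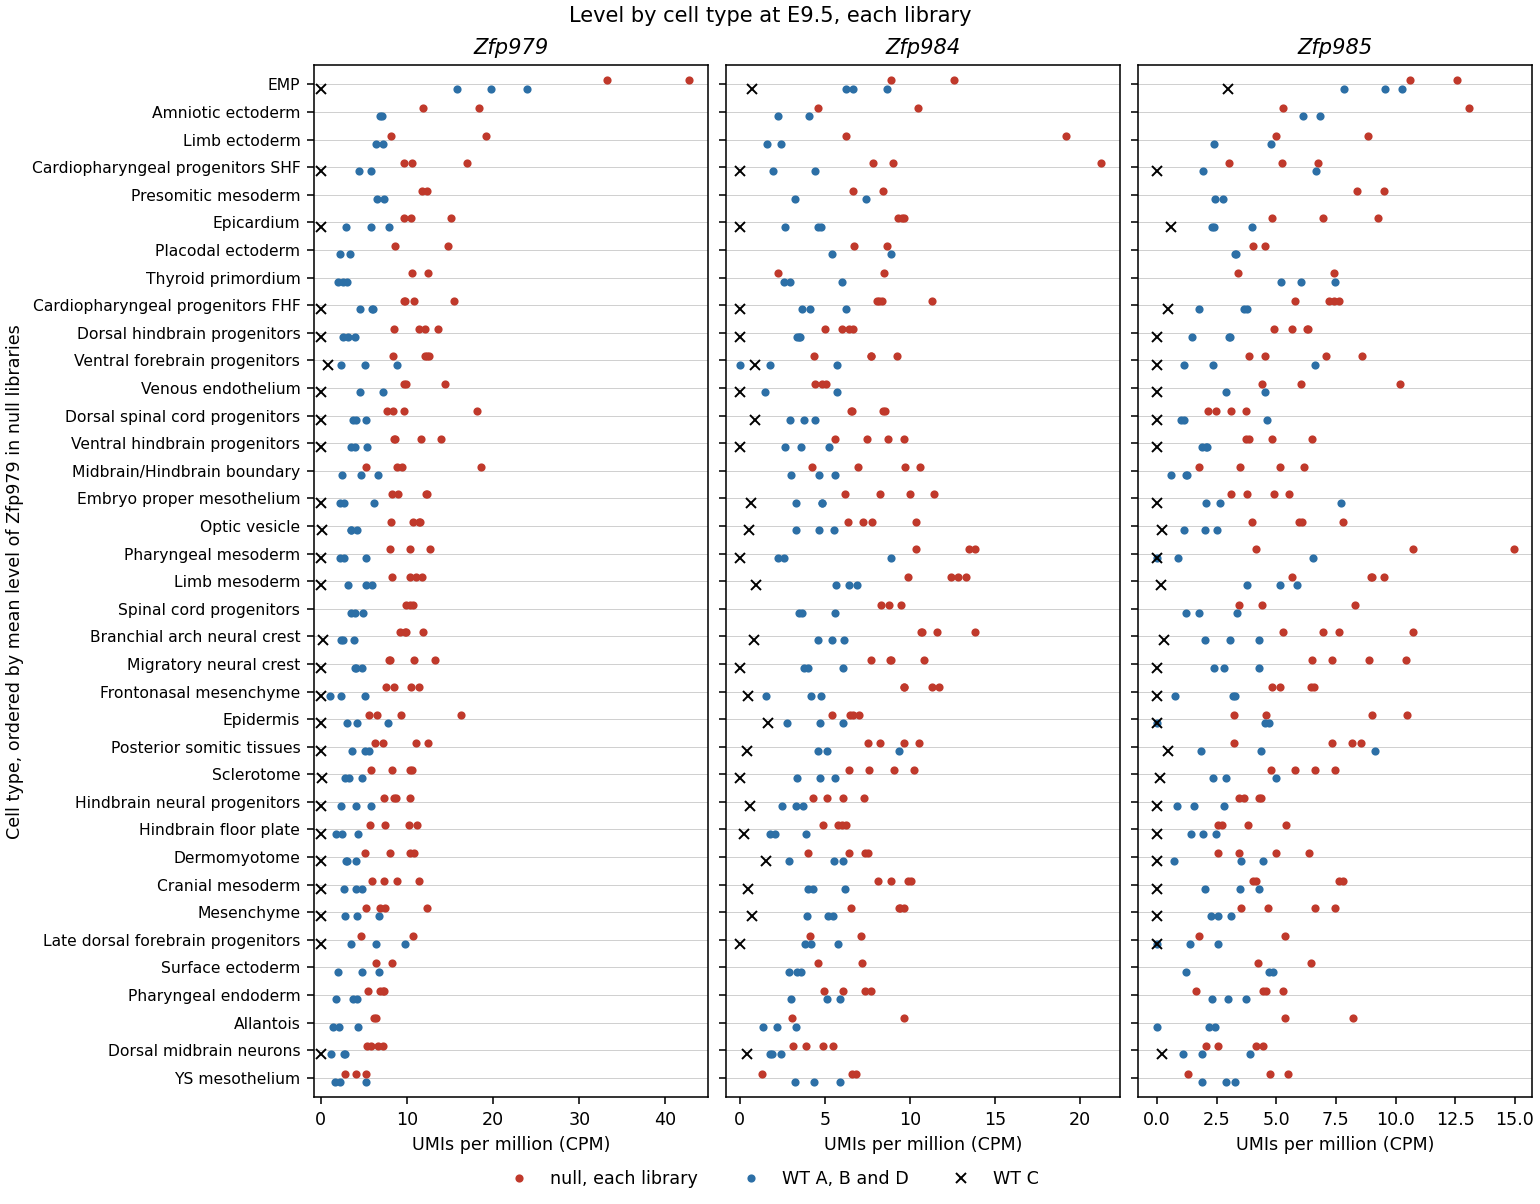
Level of Zfp979, Zfp984 and Zfp985 in CPM in each cell type at E9.5 (rows, ordered by the null mean of Zfp979), with a point for each library with over 15 cells of that type and crosses for WT library C. The EMP row stands apart for Zfp979, at 33.2 and 42.7 CPM in null libraries, and the crosses of library C lie near the left edge, at 2.96 CPM or less.

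At E7.5 the WT order set extra-embryonic ectoderm apart for Zfp985. ExE ectoderm cells held 21.7 and 25.8 CPM of Zfp985 (23.7 ± 2.85, n = 2), and the next type, Caudal epiblast, held 8.68 and 6.70 (7.69 ± 1.40, n = 2), with no overlap of libraries. These cells exist in the WT libraries alone in sufficient number, so they have no null counterpart. Zfp979 was highest in WT Blood progenitors at 17.5 ± 2.18 CPM, with ExE ectoderm at 14.97 ± 1.62 close behind and a gap to Paraxial mesoderm at 7.95 ± 2.67. Zfp984 differed, with ExE ectoderm at 6.70 ± 0.302 CPM below Caudal epiblast at 8.59 ± 3.197. Visceral endoderm was lowest for both Zfp979 (4.07 ± 1.55) and Zfp984 (2.19 ± 0.565, n = 2 each). In null cells at E7.5 Zfp984 was highest in Blood progenitors, at 22.4 and 34.3 CPM.

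At E8.5 the medians over 36 WT types were 1.18 CPM for Zfp979, 1.58 for Zfp984 and 0.524 for Zfp985, and each gene had types without a UMI in both libraries, such as YS mesothelium for Zfp979. The highest types with 2 libraries were Venous endothelium for Zfp979 (5.67 ± 2.07), NMPs for Zfp984 (4.42 ± 0.0507) and EMP for Zfp985 (4.86 ± 3.94, n = 2 each). The EMP value of Zfp985 rested on 2 UMIs in WT A and 3 in WT B, so that rank is uncertain. In the Blood progenitors of WT B, 16 cells held 4 UMIs of Zfp979 and 4 of Zfp984, or 10.1 CPM each. In null cells of the same stage the medians over 22 types were 9.66, 8.35 and 4.96 CPM.

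Cells that the sort and the tdTomato RNA place differently were read separately, pooled over the libraries of a stage. WT-sorted cells with a tdTomato UMI, which had been excluded, held Zfp979 at 3.63 CPM at E9.5 (63 UMIs in 550 cells, 95% interval 2.79 to 4.64), inside the range of WT libraries and below every null library. Zfp984 was at 4.26 (3.34 to 5.35) and Zfp985 at 2.94 CPM (2.19 to 3.86) in these cells. Of the 550 cells, 366 came from E9.5 WT library D, where Zfp979 was at 3.96 CPM (2.89 to 5.30) against 4.01 in the tdTomato-free cells of the same library. At E7.5 such cells were few, with 7.58 CPM of Zfp979 (3.47 to 14.4) in 30 cells, and at E8.5 the 16 cells held 1 UMI. The other E9.5 libraries had few such cells. In WT library B, 39 cells held Zfp979 at 7.23 CPM (3.12 to 14.2) and Zfp984 at 8.13 CPM (3.72 to 15.4), intervals that cover both the WT and the null levels, whereas the 106 cells of library A held 2.37 (1.02 to 4.68) and 3.56 CPM (1.84 to 6.22). The pooled values thus rest mainly on library D.

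Null-sorted cells without a tdTomato UMI held Zfp979 at 19.9 CPM at E7.5 (15.02 to 26.0, 71 cells), 9.06 at E8.5 (7.83 to 10.4, 708 cells) and 7.08 at E9.5 (5.14 to 9.502, 239 cells). All 3 values were above the WT libraries of their stage. For Zfp985 the E9.5 value was 3.06 CPM (1.84 to 4.77), inside the WT range of 0.304 to 3.46. These cells were kept among the null cells. Cells called doublets held Zfp979 at 8.99 CPM in the null sort and 3.59 in the WT sort at E9.5, and 0.0970 CPM in WT library C.

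**Figure D3:**
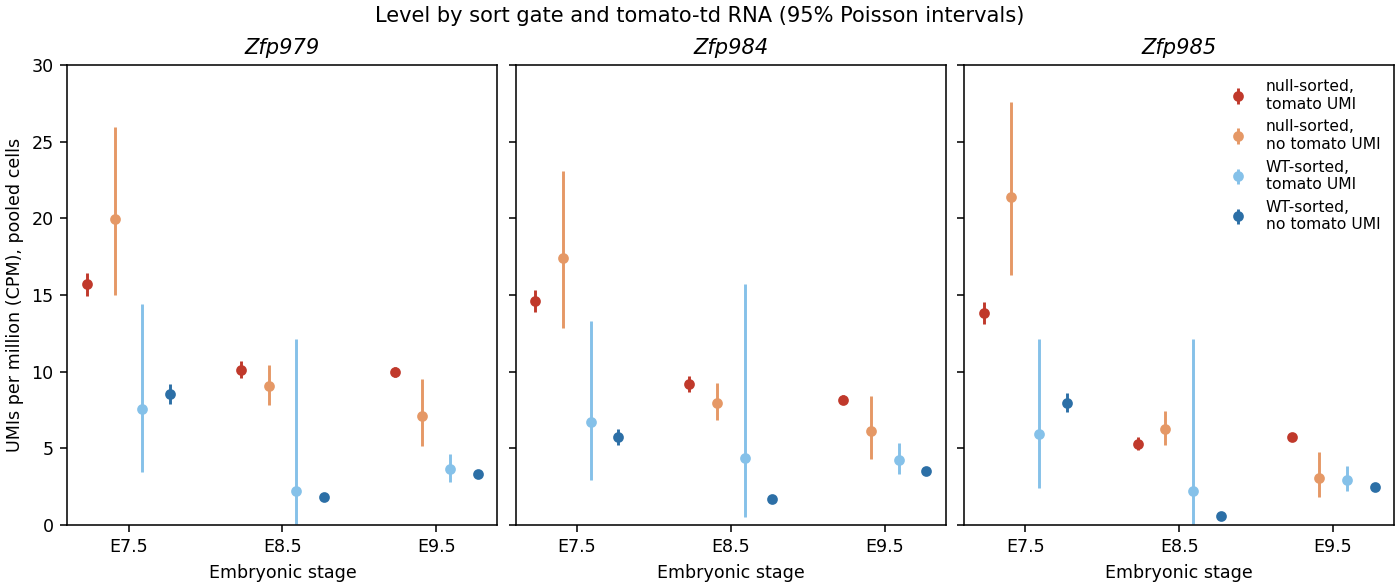
Level of Zfp979, Zfp984 and Zfp985 in CPM, pooled over cells of each sort gate with and without a tdTomato UMI, by embryonic stage, with 95% Poisson intervals as bars. At E9.5 the WT-sorted cells with a tdTomato UMI lie at 3.63, 4.26 and 2.94 CPM, by the tdTomato-free WT-sorted cells and below both null-sorted classes for Zfp979 and Zfp984.

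The neighbouring genes were then examined. The 3 genes were chosen for their null against WT values, and the neighbours are the genes left around them. Calls among the neighbours, or their absence, are therefore not independent of that choice. Zfp534 also shares 3' end stretches with Zfp985, and Gm20707 overlaps Zfp984. Within 3 Mb of the span on either side the annotation lists 203 genes, of which 111 are in the count table. Beside the 3 chosen genes these include 16 zinc finger genes, 13 of them tested after the filter on low counts, and 92 other genes, 64 of them tested. Zinc finger neighbours were counted by symbol (Zfp and a number, or Rex2). A zinc finger gene with another kind of symbol therefore counts among the others. A call needed an edgeR adjusted p below 0.05 and a log2 fold change above 1 in size, the thresholds of the study. Over all tested genes 2.49% were called at E7.5, 0.146% at E8.5 and 0.834% at E9.5. The E7.5 share was 1.05% without null library A of that stage and 1.54% without WT library A, and the E8.5 share was 0.0817% without E8.5 WT library A.

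At E7.5 Zfp990 (chr4:145510759-145539188, plus strand) rose in null cells (log2 fold change 1.16, SE 0.189, edgeR adjusted p = 0.00263). Its level was 34.4 and 34.4 CPM in null and 15.9 and 15.8 in WT libraries. Zfp993 fell by 1.26 on the log2 scale (SE 0.342, edgeR adjusted p = 0.0495), from 3.94 and 4.88 CPM in WT to 1.63 and 2.03 in null libraries. That call of Zfp993 was lost when any of 11 libraries was left out, namely every E7.5 library and all but E9.5 WT D at E9.5. Among the other 64 genes Casz1, a zinc finger transcription factor outside the KRAB class, fell (-1.55, edgeR adjusted p = 0.0369), with 7.57 and 11.4 CPM in WT and 2.47 and 3.58 in null libraries. It is a call lost without any of 8 libraries, 3 of them of E7.5 (null A, null B and WT A), 3 of E8.5 (null A, null B and WT B) and 2 of E9.5 (null B and null C). With types named as extra-embryonic left out, the log2 fold change of Casz1 was -0.07 (edgeR adjusted p = 1). Counted by symbol, the calls thus took 2 of 13 zinc finger neighbours and 1 of 64 other neighbours, where the 1 is Casz1. By direction, 0.202% of all genes were called higher and 2.29% lower in null cells at E7.5, with 0.0616% higher and 0.0840% lower at E8.5. The E9.5 shares were 0.185% higher and 0.649% lower.

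At E8.5 only Zfp990 was called among the 77 tested neighbours, higher in null cells (1.38, SE 0.190, edgeR adjusted p = 0.00489). Its libraries held 15.4 and 22.0 CPM in null and 5.91 and 8.14 in WT. The call was lost without E8.5 WT library A. Of the 13 zinc finger neighbours 7 had an unadjusted p under 0.05 at E8.5 (5.48% of all genes), and DESeq2 called 3. Zfp993 was at 1.02 and 0.513 CPM in null and 3.34 and 1.86 in WT (-1.71, edgeR adjusted p = 0.0649). At E9.5 edgeR called 0 of 13 zinc finger neighbours, with 7 at an unadjusted p under 0.05 (9.51% of all genes) and 0 by DESeq2. Zfp990 was then at 13.8, 13.9, 14.4 and 15.5 CPM in null and 11.3, 12.4, 8.51 and 12.3 in WT libraries (0.37, edgeR adjusted p = 0.284). From the first stage to the last, the median log2 fold changes over the 13 zinc finger neighbours were -0.21, 0.65 and 0.25, beside 0.01, 0.00 and 0.00 over all genes.

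The genes closest to the 3 gave no calls in the edgeR fit of all libraries with TMM scaling and all used cells. Zfp534, inside the span, had log2 fold changes of 1.03 (edgeR adjusted p = 0.0539), 1.48 (0.0589) and 0.25 (0.824) from E7.5 to E9.5. Without E9.5 WT library C it passed at E7.5 and E8.5, as it did with DESeq2. It also passed at E7.5 with upper-quartile scaling or null cells with a tdTomato UMI only and at E8.5 with embryonic types only, with adjusted p down to 0.0210 and 0.0111 over the alternatives. Gm20707 had 0.95 (edgeR adjusted p = 0.445), 1.93 (0.447) and 1.32 (0.178), and passed at E8.5 without library C and at E9.5 with DESeq2 (lowest adjusted p 0.00957 and 0.0260). Zfp534 and Gm20707 were low in library C as well, so leaving it out lowers their standard errors (for Gm20707 at E8.5 from 0.593 to 0.294). Their passes without C are given as a description. In that fit 449 of 17862 genes were called at E7.5 and 37 at E8.5. On the lower side Gm16503, Zfp982, Gm26624, Zfp988 and Zfp991 and on the upper side Zfp933, Miip, Fv1, Mfn2 and Plod1 were the nearest tested genes. Of these, Zfp988 had the highest value (1.85 at E8.5, SE 0.603, edgeR adjusted p = 0.495). It was near the floor there, at 0.177 and 0.211 CPM in null and 0.0603 and 0.0401 in WT libraries A and B. In these WT libraries 3 counts stand at 0.0362 and 0.0401 CPM. The mitochondrial fusion gene Mfn2, on the upper side, had -0.04, 0.00 and 0.07, and Zfp933, 13.2 kb from Zfp984, had -0.21, 0.03 and -0.04. The holders of the 16-base stretch that are not among the 3 genes were not called at any stage either, with Zfp600 under the filter and a lowest edgeR adjusted p of 0.298 among the rest.

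**Figure D4:**
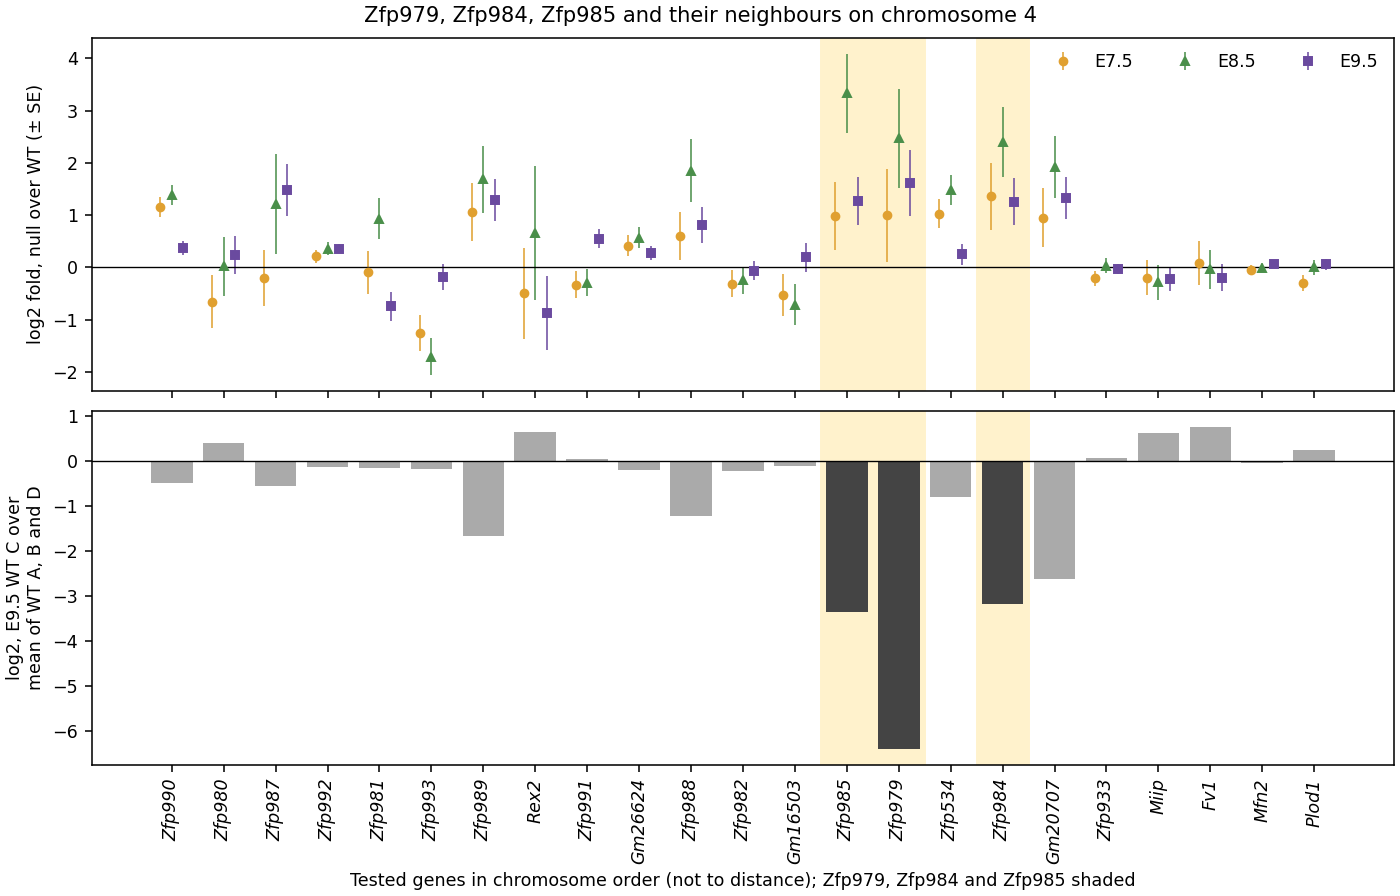
Tested zinc finger genes within 3 Mb and the nearest other tested genes on chromosome 4, in chromosome order and not to distance, with Zfp985, Zfp979 and Zfp984 shaded. The upper panel gives the log2 fold change of null over WT with its standard error at the 3 stages, and the lower panel gives the log2 ratio of E9.5 WT library C over the mean of WT A, B and D, where the bars of the 3 genes are the longest downward, with Gm20707 (0.278 CPM against 1.71) next.

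By cell type, with the filter on low counts, calls among the zinc finger neighbours were calls of Zfp990. Over all gene and type pairs 0.243% were called at E7.5, 0.0665% at E8.5 and 0.161% at E9.5. Of 31 pairs of zinc finger neighbour and type tested at E7.5, 4 were called (12.9%), all of them Zfp990 higher in null cells, in 4 of 7 types (log2 fold changes 1.25 to 1.55). At E8.5 it was 1 of 51 pairs (1.96%), again Zfp990 (1.32). Among 84 such pairs at E9.5, edgeR called 0, with 18 at an unadjusted p under 0.05 and 0 by DESeq2.

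A list of KRAB co-repressors and other silencing genes, Dnmt1 and the zinc finger gene Zfp57 included, did not give a call. At most 2.49% of all genes were called at a stage. Of a list of 20 genes, among them Trim28 and Setdb1, 19 were measured, and edgeR called 0 at each stage, with 4, 1 and 1 at an unadjusted p under 0.05 and 0 by DESeq2. Over all genes 17.3, 5.48 and 9.51% had such a p. Their log2 fold changes ran from -0.31 to 0.34 at E7.5, -0.16 to 0.16 at E8.5 and -0.09 to 0.14 at E9.5. Of 385 other rows with a Zfp symbol, 367 were tested. At no stage did edgeR call any of them higher in null cells. It called 5 lower at E7.5 (Zfp382, Zfp42, Zfp429, Zfp936 and Zfp977) and 2 at E9.5 (Zfp429 and Zfp458). These are 1.36 and 0.545% of those tested, below the 2.29 and 0.649% of all genes called lower, and 0 called higher stands beside at most 0.202% of all genes. With types named as extra-embryonic left out, none of the 5 was called at E7.5, where the log2 fold changes of Zfp429 and Zfp936 were -2.63 and -1.62 and those of Zfp382, Zfp42 and Zfp977 were -0.23, 0.21 and 0.19. Zfp429 also lost its E7.5 call without any of the 4 E7.5 libraries, and leaving out null library A of that stage ended those of Zfp936 and Zfp977. At E8.5 edgeR called 0 in either direction, with 18 at an unadjusted p under 0.05 and 0 by DESeq2, and the unadjusted counts were 58 at E7.5 and 37 at E9.5, with 7 and 3 called by DESeq2.

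Likeness to the pattern of each gene over the 16 libraries was measured next. The 3 genes were chosen for a shared difference between these same null and WT libraries, so their likeness to each other is part of that choice. Pearson correlations of log2(CPM + 1) among 9821 genes with a mean of at least 5 CPM were 0.986 between Zfp979 and Zfp984, 0.937 between Zfp979 and Zfp985 and 0.935 between Zfp984 and Zfp985. They are descriptions without a p, since the libraries share stage and genotype. Without E9.5 WT library C they were 0.9805, 0.936 and 0.919. Next for Zfp979 came Tpm3 (0.854), Med9 (0.850) and Golt1b (0.817). For Zfp984 they were Med9 (0.879), Zfp990 (0.854) and Cox15 (0.836), and for Zfp985 Zfp990 (0.927), Cnpy2 (0.899) and Mtrf1 (0.871). The order depended on library C. Without it Med9 (0.890) and Golt1b (0.877) were above Tpm3 (0.849, then in rank 10) for Zfp979, Cox15 (0.893) was above Zfp990 (0.889) for Zfp984, and Zfp990 (0.940) was closer to Zfp985 than Zfp979 was. None of these except Zfp990 lies among the neighbours.

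Across the 40 WT cell types at E9.5 the 3 genes were less alike. The correlations were 0.354 between Zfp979 and Zfp984, 0.624 between Zfp979 and Zfp985 and 0.437 between Zfp984 and Zfp985, over types that share libraries and differ in depth. Without library C they were 0.238, 0.505 and 0.305. The closest genes were Suz12 (0.738), Tspo (0.717) and Ptpn6 (0.717) for Zfp979, Mogs (0.556), Tlcd1 (0.539) and Klf16 (0.537) for Zfp984, and Atox1 (0.719), 3110040N11Rik (0.713) and Slc44a2 (0.690) for Zfp985. Without library C the correlations of these 9 genes ran from 0.350 to 0.711.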

How the data were processed

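Single-cell RNA-seq counts of sorted Stat3 null and WT cells were analysed. The authors mapped reads with Cell Ranger to mm10 (both also in the submitters' processing notes), counted UMIs with the GRCm38.p5 annotation plus the tdTomato gene, and deposited the matrix as whole UMI counts with a table of cells holding quality calls, doublet calls, mapped cell types and the percent of mitochondrial UMIs per cell. Cells failing quality control or called doublets were excluded, as were WT-sorted cells with a tdTomato UMI. The remaining cells had 10003 to 99882 UMIs.

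Counts were summed per library, and per library and cell type with over 15 cells. Levels are counts per 1000000 UMIs. The edgeR 4.0.16 quasi-likelihood test (R 4.3.3, TMM, filterByExpr, robust) was fitted to all 16 libraries as 6 groups, and per type within a stage. P-values were Benjamini-Hochberg adjusted over all genes tested, with a threshold of 0.05 and, for null against WT, a log2 fold change over 1. DESeq2 1.42.0, other scalings and filters, other cell sets and each library left out were the alternatives. The fits over libraries were also run on simulated counts with known changes, and the outcome is not given here. Intervals are exact Poisson at 95%. Types count as apart from the next in their order where their libraries did not overlap.

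Libraries were grouped by the stage and sort recorded for their cells, since their names match no sample title. Identity and shared stretches came from the annotated transcripts (Biopython 1.88, NumPy 2.4.6, pandas 2.3.3) and figures from matplotlib 3.10.9. Gene positions were found for 93.2% of rows. The genes, gene lists and tests were chosen with earlier results of these data known. The genes named were the 3, the 5 most alike over libraries and 3 most alike over WT E9.5 types for each, neighbours within 3 Mb that were called, the 5 nearest tested genes on each side, genes inside the span and called members of the lists.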

Additional observations from a re-analysis of the deposited data

Results flagged for a closer look

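In E9.5 WT the lowest of the 4 libraries, C, lay far from the others for Zfp979, where its gap to the nearest library was 0.897 of the range of the group, and for Zfp984, where it was 0.861. Both exceed the critical value of Dixon's test at the 95% level. Of 38 groups examined these 2 were marked, and chance gives such a gap in about 1 in 20 groups. Zfp985 in E9.5 WT was not marked. The levels of Zfp979 and Zfp984 in C were 0.0506 and 0.481 CPM, and the values of C by cell type and in the marker lists stand in the results. Their part in the low level was not tested.

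Cells outside the comparisons gave 2 further values. WT-sorted cells called doublets at E7.5 held Zfp984 at 7.37 CPM, with a lower Poisson limit of 6.12, above the 6.04 CPM of the higher WT library of that stage, A. The interval of library A itself, 5.15 to 7.03 CPM, overlaps that of the doublets. By library the doublets were at 5.55 CPM in A, below its other cells, and at 7.88 CPM in B. The 39 WT-sorted cells of E9.5 library C with a tdTomato UMI held 2 UMIs of Zfp979, or 1.30 CPM (95% interval 0.157 to 4.69), above the 0.0506 CPM of the tdTomato-free cells of the same library. The same 39 cells held 1 UMI of Zfp984 (0.649 CPM, 0.0164 to 3.61, against 0.481 in the tdTomato-free cells). They held 0 UMIs of Zfp985 (against 0.304 CPM).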

How the results depend on the processing

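No paired analysis was possible because the library names carry no pool or replicate number that links null to WT libraries. No value of the 3 genes over libraries and no median over cell types changed sign under any alternative run. Without the filter on low counts, Zfp985 was higher in null cells in 36 of 37 types at E9.5, with a lowest log2 fold change of -0.175. With types named as extra-embryonic left out, Zfp42 and Zfp977, called lower at E7.5, had log2 values of 0.21 and 0.19 and Casz1 had -0.07 (the cause was not tested). The same setting gave an E7.5 log2 fold change of 1.57 for Zfp985. Scaling by library size alone brought the E8.5 over E7.5 WT value of Zfp984 to -1.79 (edgeR adjusted p = 0.0460) and the E9.5 over E8.5 WT value of Zfp985 to 2.07 (0.0238), both past the threshold. That Zfp985 value also passed with DESeq2 (1.77, adjusted p = 0.0218) and with a gene set close to that of the study (1.82, edgeR adjusted p = 0.0494). That set kept the imprinted genes, which the study removed. Zinc finger neighbours called higher at E7.5 numbered 2 with DESeq2, upper-quartile scaling and null cells with a tdTomato UMI, and those called lower numbered 0 with upper-quartile scaling, no filter, embryonic types and null cells with a tdTomato UMI. At E8.5 the higher count was 2 with DESeq2 and embryonic types and 0 with each stage fitted alone, and the lower count was 1 with DESeq2 and null cells with a tdTomato UMI. Calls over cell types at E7.5 were 8 without the filter, 7 of Zfp990 and 1 of Zfp993 (lower in null cells), and 2 with DESeq2. At E8.5 they were 4 without the filter and 0 with over 50 cells, a minimum that left no type at E7.5. The highest over the median null type of Zfp985 at E9.5 was 1.70 as a share of thinned cells, against 1.995 by level.

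Leaving out 1 library at a time, the null over WT log2 values from the first stage to the last ran over 0.89 to 1.11, 1.98 to 3.25 and 1.22 to 1.81 for Zfp979, 1.33 to 1.40, 2.01 to 2.93 and 0.90 to 1.43 for Zfp984 and 0.79 to 1.17, 2.97 to 3.80 and 0.90 to 1.48 for Zfp985. The E8.5 over E7.5 WT values ran over -2.84 to -1.58 for Zfp979 and -2.15 to -1.23 for Zfp984, and the E9.5 over E8.5 WT values over 0.10 to 1.37, 0.38 to 1.29 and 1.45 to 2.29 for Zfp979, Zfp984 and Zfp985. The E9.5 medians over cell types, in an alternative added after seeing the data, were 1.22, 0.92 and 1.08 without WT library C for the 3 genes in that order. In null cells E8.5 over E7.5 ran over -0.61 to -0.56 for Zfp984 and -1.47 to -1.03 for Zfp985. Neighbours called higher numbered 1 to 2, 0 to 2 and 0 to 1 in that order, the 1 at E9.5 without WT library D, and lower 0 to 1 at E7.5 and E8.5. Over all genes, calls at E7.5 were 28 with embryonic types only against 445, of which 46.4 and 8.09% were higher in null. At E8.5 they were 66 with DESeq2, 42 with null cells with a tdTomato UMI, 16 with the gene set close to that of the study and 8 with the stage alone, against 26. Without 1 library they fell to 193 (E7.5 null A) and 283 (E7.5 WT A) at E7.5 and to 15 (E8.5 WT A) at E8.5. The 4 to 38 UMIs of library C limit the precision of its levels.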
